A study of Mus musculus with 12 samples.

Results

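The variable (V) and joining (J) segments of the T cell receptor beta locus were followed as rows of the count table whose symbols begin with Trbv or Trbj and that held at least 10 reads over the 12 libraries. This left 39 members of the 55453 genes in the table, made up of 25 of 35 Trbv rows and all 14 Trbj rows. The rule used only symbols and summed reads, and no value of a genotype, but it was set with earlier results of these data known. The 10 Trbv rows left out are all annotated as pseudogenes, and 5 of them held no read. Just inside the limit stood Trbv12-3 with 38 reads over all libraries, and just outside it Trbv6 with 9. Usage is given as the share of a segment among the summed Trbv, or Trbj, counts of a library.

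The libraries were made from the RNA of regulatory T (Treg) cells, which restrain immune responses, taken from C57BL/6 mice by flow cytometry for CD4 and Foxp3. The series concerns CNS4, a distal enhancer of Foxp3, the gene of the transcription factor that marks these cells, and its title speaks of commitment to the Treg lineage in the thymus. The 4 groups of 3 libraries were males with the floxed enhancer, which the labels also call wild type (libraries 1, 2 and 4), males with the enhancer knocked out (1 to 3), females labelled as floxed heterozygotes (1 to 3) and females labelled as knockout heterozygotes (1 to 3). The labels give neither the Cre driver or route of the deletion, nor the age in numbers, nor which allele the sorted female cells used, nor whether each library came from its own animal, so p-values measure the spread between these libraries. Cells were not treated after the sort. Values below are listed in the order of the libraries just given, males before females and floxed before knockout.

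A T cell receptor beta gene is put together in the developing thymocyte. The RAG recombinase first joins a diversity (D) segment to a J segment and then a V segment to that pair, and imprecise joining makes the third complementarity-determining region differ from cell to cell. V segments code for most of the variable domain, including the first and second complementarity-determining regions, while J segments code for its last strand. The mouse locus holds most V segments upstream of a pair of D-J-C clusters. A J segment of the first cluster is spliced to Trbc1 and one of the second cluster to Trbc2, and J segments downstream of the joined one stay in the intron before the constant gene. A single V segment, Trbv31, lies behind the second constant gene in the opposite orientation.

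All 39 members had a sequence in GENCODE release M21, which lies on build GRCm38. It places them on chromosome 6, 24 of the Trbv members on the plus strand and Trbv31 on the minus strand. The deposited counts were made on build mm9, so no coordinates are given. Trbj segments are only 46 to 54 bases long and Trbv members 291 to 566. The J segments are shown whole because each row of the table rests on so few bases. Capitals mark the codons of the phenylalanine, glycine, any residue, glycine motif that is typical of J segments, searched as TTNGGNNNNGGN on both strands. It was found in 11 of 14 segments, in none of them on the other strand, and in 1 of the 25 Trbv members. Trbj1-6, Trbj1-7 and Trbj2-6 lack these letters, and of these only Trbj2-6 is annotated as a pseudogene. Lack of the letters is thus no sign that a segment is not used.
Trbj1-1: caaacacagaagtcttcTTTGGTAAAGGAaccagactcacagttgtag
Trbj1-2: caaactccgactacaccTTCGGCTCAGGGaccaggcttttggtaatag
Trbj1-3: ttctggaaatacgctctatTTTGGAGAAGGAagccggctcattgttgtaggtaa
Trbj1-4: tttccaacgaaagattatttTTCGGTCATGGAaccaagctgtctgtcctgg
Trbj1-5: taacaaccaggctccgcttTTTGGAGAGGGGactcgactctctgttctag
Trbj1-6: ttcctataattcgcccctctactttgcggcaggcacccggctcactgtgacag
Trbj1-7: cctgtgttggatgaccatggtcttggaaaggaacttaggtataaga
Trbj2-1: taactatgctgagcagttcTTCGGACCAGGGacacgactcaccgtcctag
Trbj2-2: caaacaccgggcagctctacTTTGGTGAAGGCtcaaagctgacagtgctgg
Trbj2-3: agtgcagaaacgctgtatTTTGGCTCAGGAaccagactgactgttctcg
Trbj2-4: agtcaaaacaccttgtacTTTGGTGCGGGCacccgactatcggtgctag
Trbj2-5: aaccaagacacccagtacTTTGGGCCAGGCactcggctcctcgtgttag
Trbj2-6: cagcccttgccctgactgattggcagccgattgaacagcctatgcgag
Trbj2-7: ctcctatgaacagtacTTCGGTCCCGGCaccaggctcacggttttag

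Trbv12-1 and Trbv12-2 are shown next because their shares went different ways in the females. Of the 385 aligned bases of their transcripts 340 were identical, which is 88.3%. The V exon, the second of each transcript, is printed with the 32 of its 293 bases that differ between the segments in capitals. No 50-base window of Trbv12-1 was shared exactly with another Trbv or Trbj row of the annotation, and 4 of the 336 windows of Trbv12-2 were.
Trbv12-1: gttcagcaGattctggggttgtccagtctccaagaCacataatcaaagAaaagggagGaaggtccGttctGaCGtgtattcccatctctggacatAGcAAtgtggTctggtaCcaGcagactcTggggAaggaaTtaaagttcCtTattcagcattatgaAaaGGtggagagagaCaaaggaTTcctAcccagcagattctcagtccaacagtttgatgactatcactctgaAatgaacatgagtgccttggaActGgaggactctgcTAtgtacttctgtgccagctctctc
Trbv12-2: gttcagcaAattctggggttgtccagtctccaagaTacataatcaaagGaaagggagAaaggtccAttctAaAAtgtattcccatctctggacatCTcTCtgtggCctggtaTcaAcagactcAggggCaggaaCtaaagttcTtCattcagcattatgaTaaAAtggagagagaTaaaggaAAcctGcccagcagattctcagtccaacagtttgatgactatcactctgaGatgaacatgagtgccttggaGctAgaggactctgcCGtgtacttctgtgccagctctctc

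The last 60 bases of the 2 Trbv members with the highest shares per length and of the counted pseudogene Trbv24 show where the V segment meets the junction. Capitals mark TGTGC, the cysteine codon that opens the third complementarity-determining region and the next 2 bases. It was present in the last 60 bases of 22 of 25 members, on the printed strand only, and of 4 of the 10 rows left out. Trbv1, Trbv20 and Trbv30 lack it in this window.
Trbv13-2: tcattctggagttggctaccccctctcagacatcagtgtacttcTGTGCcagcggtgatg
Trbv3: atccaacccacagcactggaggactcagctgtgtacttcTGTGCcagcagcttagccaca
Trbv24: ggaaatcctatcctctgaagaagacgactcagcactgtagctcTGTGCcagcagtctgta

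The depth behind the shares was modest. Libraries held 12423335 to 30244505 reads in genes, of which 9759 to 19213 fell in Trbv rows and 3394 to 6120 in Trbj rows. Trbv rows took 0.0592 to 0.125% of the gene counts. The 95% binomial intervals (exact Clopper-Pearson, counting error only) reached at most 0.680 percentage points to either side of a Trbv share and 1.18 points for a Trbj share. Pairs of libraries within a group mostly differed by more than counting error, the chi-square divided by its degrees of freedom being 0.866 to 9.26 over Trbv and 1.01 to 11.8 over Trbj. Of the sorted-cell markers, Foxp3 and Cd3d were high in every library, while Cd4, which lies on the minus strand, reached only 4.76 to 12 CPM, counts scaled to the library size. Foxp3 itself stood at 2675, 2588 and 2227 CPM in floxed males, 1878, 1462 and 2037 in knockout males, 2582, 2658 and 2657 in floxed females and 685, 1824 and 825 in knockout females. Female knockout libraries 1 and 3 thus stood apart from library 2 of their own group.

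A few V segments carried most of the Trbv signal in all 12 libraries. The first 3 by share, Trbv3, Trbv13-2 and Trbv2, took 36.1% of Trbv counts, and the first 8 took 75.5%. The effective number of Trbv segments, the number of equally used segments that would give the same diversity, lay between 13.5 and 14.3. All Trbv rows annotated as pseudogenes, those left out included, took 0.566%, and 6 of the 25 members had a mean share under 0.1%. In bulk RNA, a larger share of cells using a segment and more RNA per such cell cannot be told apart.

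Trbv3 had the highest mean share, 13.4%. It took 13.1, 13.3 and 12.3% in floxed males, 15.3, 13.9 and 10.9% in knockout males, 13.4, 13.0 and 13.6% in floxed females and 15.1, 14.5 and 12.6% in knockout females. The knockout libraries of both sexes lay on both sides of the floxed ones. Trbv13-2, known from T cell responses to myelin basic protein in mice, took 12.3, 12.6 and 13.5%, then 13.4, 13.2 and 15.8%, then 11.4, 11.5 and 11.2%, then 11.6, 12.2 and 12.3%. All female knockout libraries lay above all female floxed ones, and the males overlapped. Trbv2 took 10.6, 10.6 and 9.75% in floxed males, 9.98, 7.75 and 8.89% in knockout males, 12.4, 10.7 and 10.5% in floxed females and 9.42, 8.70 and 11.3% in knockout females, and the genotypes overlapped in both sexes. Trbv16 took 8.75, 8.07 and 8.18%, then 8.04, 8.0 and 8.64%, then 8.33, 7.70 and 7.76%, then 8.5, 8.04 and 7.17%. Its groups overlapped throughout and their means lay within 7.91 and 8.34%. Trbv1, the segment at the upstream end of the locus, took 5.95, 5.96 and 7.14%, then 6.94, 6.69 and 7.57%, then 5.53, 6.32 and 5.91%, then 5.81, 6.82 and 5.85%, again with overlap.

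**Figure D1:**
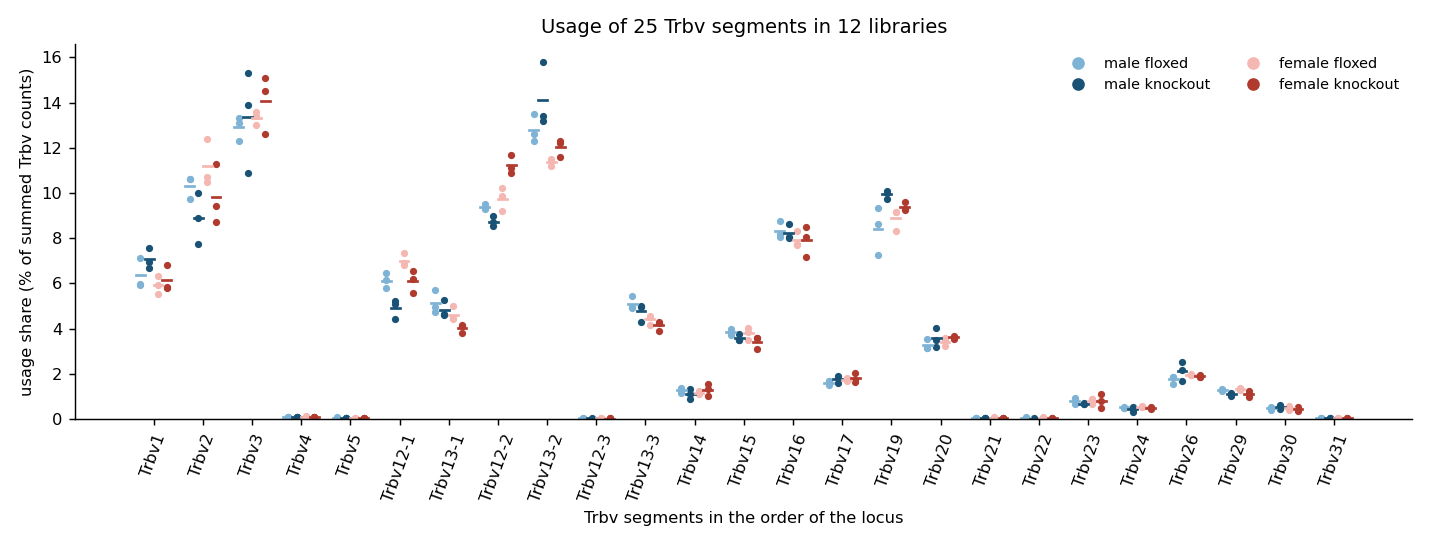
Usage share (percent of summed Trbv counts, vertical axis) of the 25 Trbv members in the order of the locus, with 1 point per library and a short line at each group's mean. Trbv3 and Trbv13-2 have the highest mean shares, 13.4 and 12.6%, and 6 members lie under 0.1%.

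The order of the segments changed when counts were divided by length, which was done because longer transcripts can collect more reads. Divided by annotated exonic length, Trbv13-2 came first with 15.0 ± 1.45% (SD over 12 libraries) and lay above Trbv3, at 12 ± 1.13%, in 12 of 12 libraries. Trbv3 lay above Trbv12-2, at 10.3 ± 1.08%, in 11 of 12, and Trbv12-2 above Trbv16, at 8.27 ± 0.433%, in 12 of 12. The next places were not separated: Trbv2, at 7.30 ± 0.939%, exceeded Trbv19, at 6.57 ± 0.571%, in 8 of 12 libraries, Trbv19 exceeded Trbv12-1, at 6.31 ± 0.896%, in 6 of 12, and Trbv12-1 exceeded Trbv1, at 6.21 ± 0.596%, in 8 of 12. On this scale 16 of 25 members took at least 1%.

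The remaining Trbv members were minor. Trbv13-1 had a mean share of 4.66%, Trbv13-3 4.61%, Trbv15 3.66% and Trbv20 3.47%, while Trbv26, Trbv17 and Trbv14 lay at 1.94, 1.74 and 1.2%. Trbv23 took 0.775% and Trbv30 0.480%. Trbv4, Trbv5, Trbv21 and Trbv22 lay between 0.0350 and 0.0958%, and Trbv12-3 was the lowest member with a mean share of 0.0254%. Trbv12-3, which is annotated as a pseudogene, lies between Trbv13-2 and Trbv13-3 and was far below both. It had 4, 4 and 1 reads in floxed males and 2, 5 and 3 in knockout males. In females it had 4, 3 and 3 reads with the floxed and 3, 3 and 3 with the knockout allele. Its share was at most 0.0418%. Trbv31 had 4, 4 and 5 reads, then 9, 3 and 0, then 5, 6 and 6, then 4, 3 and 4. Its 0 of 17898 Trbv reads in male knockout library 3 allows a share of up to 0.0168%. Genes of the minus strand were poorly counted in this table, so the level of Trbv31 is no measure of its use.

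The question put to these members was whether the receptor segments used by Treg cells differ with the enhancer. No member passed edgeR's quasi-likelihood test (Benjamini-Hochberg adjusted p under 0.05 over all 12411 genes tested) when knockout was set against floxed on the scale of usage, in which each library is scaled to its summed Trbv or Trbj counts. Of the 25 Trbv members 20 had enough reads to be tested, all but Trbv5, Trbv12-3, Trbv21, Trbv22 and Trbv31, as had all 14 Trbj members. On the Trbv scale the share of all genes called was 0.00806% in males, 0.0322% in females and 1.50% over both sexes, and on the Trbj scale 0.0967, 0.137 and 8.73%. At an unadjusted p under 0.05, 1 Trbv member passed in males, none in females and 1 over both sexes, where 6.75, 11.4 and 14.2% of all genes did. For Trbj these counts were 0, 1 and 0 against 14.5, 16.2 and 23.4% of all genes. The median log2 fold change of Trbv usage was -0.09 in males, -0.04 in females and -0.01 over both sexes, where all genes on that scale had 0.05, -0.14 and -0.07. For Trbj usage it was -0.02, -0.15 and -0.05, where all genes had 0.23, 0.07 and 0.13.

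Whole profiles were compared as well. The distance between 2 libraries was taken as the share of counts that would have to move from some segments to others to make the profiles equal. Over Trbv it had a median of 4.41 percentage points (1.82 to 6.62) between libraries of the same group, 6.27 (5.30 to 6.74) between genotypes in males and 4.74 (4.05 to 6.95) in females. Over Trbj it was 5.26 points (2.75 to 10.6) within groups, 4.99 (3.52 to 8.78) between genotypes in males and 7.93 (1.83 to 11.7) in females. The ranges between genotypes overlapped the pooled range within groups in all 4 cases. The pairs share libraries, so this overlap cannot exclude a difference. Over Trbv, pairs within floxed males spanned 2.15 to 4.96 points and pairs within knockout males 4.34 to 6.62. The range between male genotypes lay above the former and overlapped the latter. In the other cases it overlapped the range of both groups.

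**Figure D2:**
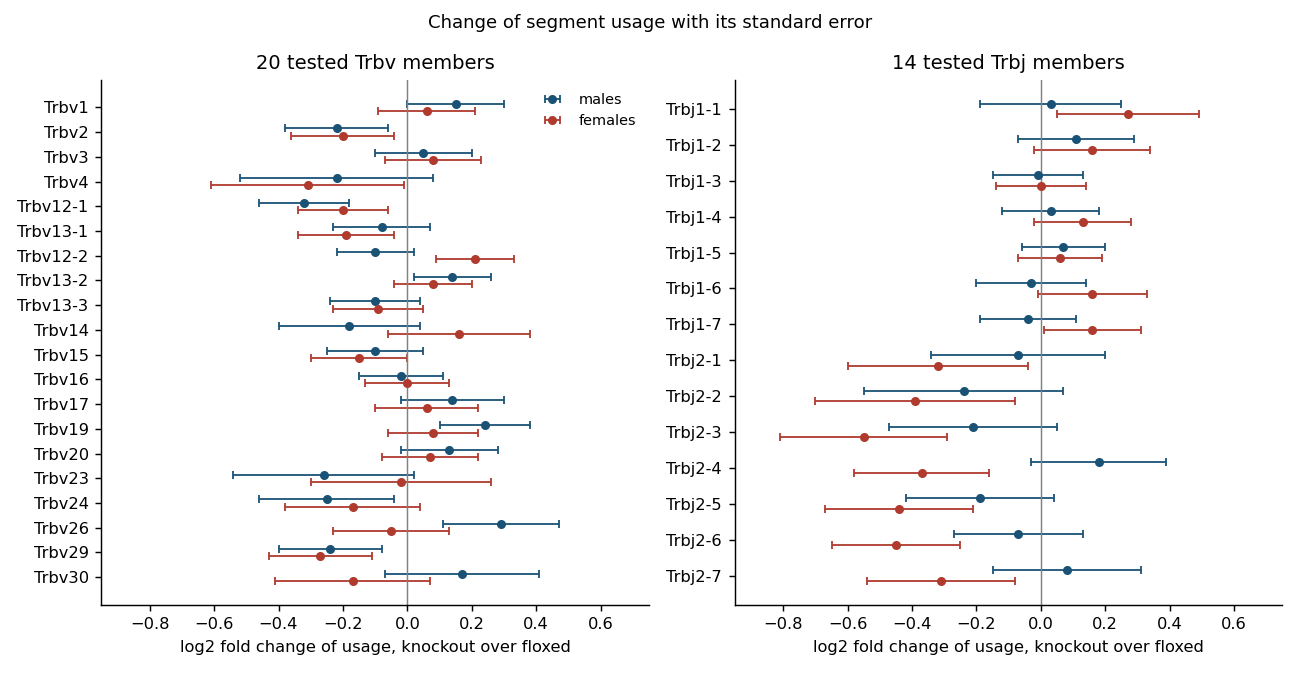
Log2 fold change of usage, knockout over floxed (horizontal axis), of the 20 Trbv and 14 Trbj members tested, in males and in females, with bars of 1 standard error. Most bars reach 0, the largest Trbv changes lie near 0.3, and all 7 Trbj2 segments lie below 0 in females.

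Trbv12-1, Trbv29 and Trbv19 were the 3 Trbv members whose shares did not overlap between the genotypes and went the same way in both sexes, and no Trbj member did so. The background for this count was 4.43% of all genes tested on the ratio to Trbv counts and 9.85% on the ratio to Trbj counts. Trbv12-1 took 6.13, 5.79 and 6.44% in floxed males and 4.41, 5.10 and 5.21% in knockout males, a mean of 6.12 ± 0.327% (SD, n = 3) against 4.91 ± 0.434%. In females it took 7.34, 6.80 and 6.88% with the floxed and 5.59, 6.55 and 6.21% with the knockout allele, 7.01 ± 0.290% against 6.12 ± 0.488%. Every knockout library was below every floxed library of its sex, but the floxed males overlapped the knockout females. The log2 fold change of its usage was -0.32 (SE 0.14) in males, -0.20 (SE 0.14) in females and -0.26 (SE 0.10) over both sexes, with an edgeR adjusted p of 0.285 in the last.

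Trbv29 was a minor segment, near 1%. Its share was 1.23, 1.33 and 1.28% in floxed males, 0.998, 1.10 and 1.16% in knockout males, 1.30, 1.34 and 1.36% in floxed females and 1.11, 1.23 and 0.961% in knockout females. Every knockout library lay below every floxed library of its sex. The log2 fold change was -0.26 (SE 0.12, edgeR adjusted p = 0.352) over both sexes. Trbv19 went the other way, from 8.64, 9.32 and 7.24% in floxed to 9.98, 10.1 and 9.74% in knockout males, and from 8.31, 9.14 and 9.17% in floxed to 9.61, 9.31 and 9.26% in knockout females. Its knockout libraries were the tighter ones, with an SD of 0.171 points in males and 0.189 in females against 1.07 and 0.491. The fitted change was 0.24 (SE 0.14) in males, 0.08 (SE 0.14) in females and 0.16 (SE 0.10, edgeR adjusted p = 0.457) over both sexes.

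By an exact two-sided permutation test of the shares, with labels exchanged within each sex, these 3 members reached 0.00500, the smallest p the design allows over both sexes. Adjusted over all genes tested, that p came to 0.113. Unadjusted p was under 0.05 for 6 of 25 Trbv members, where 15.8% of all genes passed, and for 3 of 14 Trbj members, where 23.9% did. Within 1 sex the smallest possible p is 0.10. In males 5 of 25 Trbv and 0 of 14 Trbj members did not overlap between the genotypes, where 12.6 and 20.4% of all genes did not. In females it was 7 of 25 and 5 of 14, where 20.4 and 27.0% of all genes did not. Those shares of all genes cover tested genes only, and among the 20 tested Trbv members the counts were 4 in males and 6 in females, without Trbv5 and Trbv31.

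Trbv12-2, the near copy of Trbv12-1 printed above, was the one member that separated the genotypes in opposite directions. It took 9.32, 9.53 and 9.27% in floxed males and less, 8.70, 8.54 and 8.97%, in knockout males. In floxed females it took 9.18, 9.85 and 10.2%, and in knockout females more, 10.9, 11.1 and 11.7%. The mean difference was -0.640 points in males and 1.51 points in females. The edgeR test of the female minus the male change gave 0.31 (SE 0.17, adjusted p = 0.956) on the usage scale. Summed with Trbv12-1, which avoids the question of how reads were split between the copies, Trbv12 usage changed by -0.18 in males, 0.05 in females and -0.07 (SE 0.08, edgeR adjusted p = 0.695) over both sexes. The 3 Trbv13 segments, which are 86.1 to 90.6% identical, summed to 0.01 (SE 0.08, edgeR adjusted p = 0.938).

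Trbv4, with only 9 to 18 reads in a library, had the largest fitted Trbv change over both sexes, -0.27 (SE 0.21, edgeR adjusted p = 0.562), and its shares overlapped between the genotypes in both sexes. Among members with a mean count of at least 50, the pseudogene Trbv24, printed above, came after Trbv12-1 and Trbv29. Its share was 0.548, 0.502 and 0.483% in floxed males, 0.330, 0.536 and 0.425% in knockout males, 0.565, 0.515 and 0.547% in floxed females and 0.427, 0.519 and 0.507% in knockout females. The genotypes overlapped in both sexes and the change over both was -0.21 (SE 0.15, edgeR adjusted p = 0.525). Trbv2 changed by -0.21 (SE 0.11, adjusted p = 0.425) and Trbv13-2 by 0.11 (SE 0.09, adjusted p = 0.550), while the most used segment, Trbv3, changed by 0.06 (SE 0.11, adjusted p = 0.780), all by edgeR over both sexes.

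J segments differed steeply in level along each cluster, with the first segments low and the last high in all groups. Per kilobase of segment, the mean level climbed along the first cluster from 232 CPM for Trbj1-1 through 379 for Trbj1-2 and 545 for Trbj1-3 to 775 for Trbj1-4, and then stood at 804, 710 and 831 for Trbj1-5, Trbj1-6 and Trbj1-7. Along the second cluster the mean over the 12 libraries went from 116 for Trbj2-1 through 120, 156, 178, 215 and 285 to 454 for Trbj2-7. The first 3 steps of the first cluster, and the last 2 of the second, were upward in 12 of 12 libraries. So was the step from Trbj1-6 to Trbj1-7 per length, though by count it was upward in only 8 of 12. The step from Trbj1-4 to Trbj1-5 was upward in 8 of 12 and that from Trbj1-5 to Trbj1-6 in 2 of 12, so these neighbours did not keep 1 order. In the second cluster the steps from Trbj2-1 to Trbj2-2 and from Trbj2-3 to Trbj2-4 were upward in 8 of 12, that from Trbj2-2 to Trbj2-3 in 11 and that from Trbj2-4 to Trbj2-5 in 10. The count of the last segment was 3.48 times that of the first in cluster 1 (2.24 to 4.28 over the libraries) and 3.79 times in cluster 2 (2.52 to 5.06). The pseudogene Trbj2-6, whose printed sequence lacks the motif, had a higher level per length than the 5 Trbj2 segments before it. Whether reads came from spliced or unspliced RNA was not tested. A Trbj share is therefore given as a share of reads, and how often a segment was joined was not measured.

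**Figure D3:**
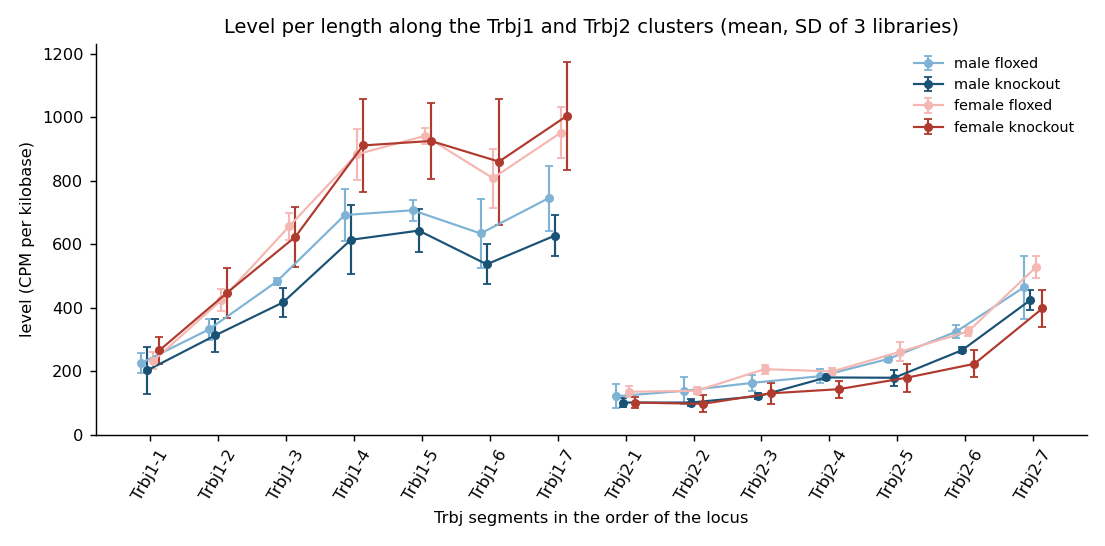
Level of each Trbj segment in CPM per kilobase (vertical axis) in the order of the locus, as the mean of 3 libraries with bars of 1 SD for each group. The last segment of each cluster stands well above the first in every group, with means over all libraries of 831 at Trbj1-7 and 454 at Trbj2-7.

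Trbj1-5 had the largest share, 12.8, 13.5 and 12.8% in floxed males, 13.9, 13.9 and 13.2% in knockout males, 13.8, 14.3 and 14.3% in floxed females and 15.2, 14.4 and 14.6% in knockout females. It separated the genotypes in females only narrowly, and its usage changed by 0.06 (SE 0.09, edgeR adjusted p = 0.730) over both sexes. Trbj1-4 took 12.4, 14.6 and 12.1%, then 11.8, 14.0 and 13.9%, then 14.1, 12.9 and 13.5%, then 15.5, 13.9 and 14.9%. Trbj1-7 took 12.4, 14.3 and 11.2%, then 11.9, 12 and 12.9%, then 13.7, 12.6 and 13.1%, then 15.5, 13.6 and 14.8%. Both overlapped between the genotypes in each sex. Trbj1-6 took 12, 14.5 and 10.7%, then 11.5, 11.7 and 13.1%, then 13.8, 12.5 and 12.3%, then 15.2, 12.3 and 15.6%. Trbj1-3 stayed close to 10% with 9.55, 9.71 and 9.61%, then 9.49, 9.74 and 9.54%, then 10.3, 11.4 and 10.2%, then 11.4, 10.2 and 10.4%. These also overlapped, and Trbj1-3 had a fitted change of 0.00 (SE 0.10). Trbj2-7, the segment of the second cluster with the largest share of reads, took 8.13, 6.22 and 9.90%, then 10.1, 7.38 and 8.22%, then 6.63, 8.12 and 7.71%, then 4.76, 7.51 and 5.86%. Among knockout females, libraries 1 and 3 were below every floxed female and library 2 was not.

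The second J cluster had lower values in knockout females, though none of its segments passed the test given below. Summed over its 7 segments, Trbj2 stood at 80.6, 67.1 and 90.4 CPM in floxed males, 66.5, 67.8 and 65.8 in knockout males, 87.3, 89.1 and 85.1 in floxed females and 50.7, 68.5 and 66.4 in knockout females. The female groups did not overlap, with means of 87.2 ± 2.0 and 61.9 ± 9.73 CPM (SD, n = 3), and the males did, with 79.4 ± 11.7 and 66.7 ± 1.01. Each of the 7 Trbj2 segments had all 3 knockout females below all 3 floxed females in CPM, and 3 of 7 had the same order in males, where 9.70 and 6.13% of all genes tested did. The segments share libraries and a locus, so these are not 7 separate observations. Of the 7 Trbj1 segments, 0 showed this order in females and 1 in males. Trbj1 summed to 188, 209 and 177 CPM, then 147, 190 and 167, then 264, 237 and 235, then 275, 205 and 277.

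No Trbj or Trbv member passed the edgeR test in CPM either. The share of all genes called was 0.0242% in males, 0.201% in females and 3.31% over both sexes. Of the 14 Trbj members 0 passed at an unadjusted p under 0.05 in males, 4 in females and 4 over both sexes, where 8.12, 19.2 and 20.2% of all genes did. Of the 20 tested Trbv members 1, 1 and 0 did. The median log2 fold change of the Trbj members was -0.22 in males, -0.24 in females and -0.20 over both sexes, and that of the Trbv members -0.11, 0.11 and 0.05, where all genes had 0.01, -0.02 and -0.02.

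Trbj2-3 had the largest change in females and over both sexes, while in males Trbj2-2 had a larger one, -0.45 (SE 0.27, edgeR adjusted p = 0.805). It stood at 9.11, 6.67 and 8.28 CPM in floxed males, 5.53, 6.48 and 5.96 in knockout males, 9.39, 10.5 and 10.6 in floxed females and 4.89, 8.15 and 6.20 in knockout females. No knockout library reached a floxed one of its sex. The log2 fold change was -0.42 (SE 0.22) in males, -0.66 (SE 0.22) in females and -0.54 (SE 0.15) over both sexes, with an edgeR adjusted p of 0.0841 in the last. Without female knockout libraries 1 and 3 it was -0.37 over both sexes, with an adjusted p of 0.462, and DESeq2 gave -0.55 with an adjusted p of 0.00729. Its share of Trbj counts was 3.39, 2.42 and 3.09%, then 2.59, 2.51 and 2.57%, then 2.67, 3.22 and 3.30%, then 1.50, 2.98 and 1.80%, so that on this scale the genotypes overlapped in both sexes and the change was -0.38 (SE 0.18, edgeR adjusted p = 0.242). Trbj2-6 was picked out after its values were seen. It stood at 15.0, 15.1 and 16.8 CPM, then 13.2, 12.9 and 12.3, then 16.4, 15.0 and 15.5, then 8.45, 11.3 and 12.5, and changed by -0.41 (SE 0.12, edgeR adjusted p = 0.0963) over both sexes.

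Trbj2-5 took 4.36, 4.05 and 4.55% of Trbj counts in floxed males, 3.62, 3.33 and 4.36% in knockout males, 4.10, 3.86 and 3.57% in floxed females and 1.95, 3.53 and 3.03% in knockout females. The females separated narrowly and the males overlapped, and in CPM it changed by -0.47 (SE 0.15, edgeR adjusted p = 0.118) over both sexes. Trbj2-2 took 2.82, 1.72 and 3.35%, then 2.53, 2.15 and 1.99%, then 2.15, 1.99 and 2.27%, then 1.15, 2.35 and 1.40%. It overlapped in both sexes, and its change in CPM was -0.48 (SE 0.19, edgeR adjusted p = 0.195). Trbj2-1 and Trbj2-4 ran from 3.88 to 10.3 CPM over the 12 libraries.

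As a share of all Trbj counts, the second cluster took 30.0, 24.3 and 33.8% in floxed males, 31.1, 26.3 and 28.3% in knockout males, 24.8, 27.3 and 26.6% in floxed females and 15.6, 25.1 and 19.3% in knockout females. Female knockout library 2 lay inside the floxed range, and libraries 1 and 3 lay below every other library. The group means were 29.4 ± 4.75, 28.6 ± 2.45, 26.2 ± 1.26 and 20.0 ± 4.78% (SD, n = 3). The effective number of Trbj segments was 9.95 and 10.5 in those 2 libraries and 11.1 to 12.3 in the other 10.

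The constant genes of the clusters were read as well. Trbc2, the constant gene of the second cluster, took 55.7, 52.7 and 54.6% of Trbc1 and Trbc2 counts in floxed males, 54.1, 54.2 and 52.7% in knockout males, 55.0, 57.7 and 55.7% in floxed females and 51.1, 53.5 and 50.8% in knockout females. The female means, 56.2 ± 1.38 and 51.8 ± 1.46% (SD, n = 3), did not overlap, at the smallest exact permutation p of 0.10, and the male means were 54.3 ± 1.55 and 53.7 ± 0.809%. The fitted change was larger for Trbc1 than for Trbc2, and the difference between them was not tested. Trbc1 stood at 913, 835 and 903 CPM in floxed and 1402, 923 and 1134 in knockout females, which edgeR fitted as a change of 0.38 on the log2 scale (SE 0.13, adjusted p = 0.190). Trbc2 stood at 1118, 1138 and 1136 against 1466, 1060 and 1170, a change of 0.12 (SE 0.12, edgeR adjusted p = 0.544). Its mean was 1131 CPM in floxed and 1232 in knockout females, so its level was not lower as the Trbj2 sum was. In males the changes of Trbc1 and Trbc2 were 0.05 and 0.01. Trbc1 and Trbc2 are near copies, so reads common to both could have been lost or split.

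**Figure D4:**
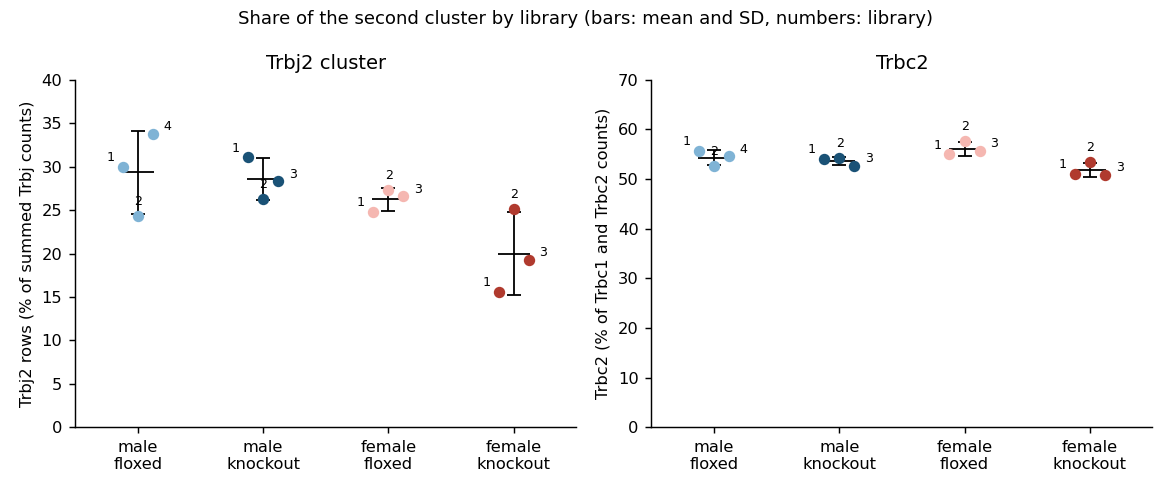
Share of the second cluster among Trbj counts (left) and of Trbc2 among Trbc1 and Trbc2 counts (right), in percent, with 1 numbered point per library and bars for the mean and SD of each group. Female knockout libraries 1 and 3 are lowest in both panels, at 15.6 and 19.3% for Trbj2 and 51.1 and 50.8% for Trbc2.

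Some traits of female knockout libraries 1 and 3 stood out beside their lower Trbj2 share and others did not. The part of these traits in it was not tested. Foxp3 levels in these libraries, 685 and 825 CPM, were the lowest of the 12. Their mitochondrial reads, 4.04 and 3.40% of gene counts, were the highest, beside 1.17 to 2.77% in the others. Reads without a unique position were also highest, 17.3 and 16.8% beside 14.1 to 16.2%. So were the sums of 2 gene lists described below. The recombination list summed to 1648 and 1771 CPM beside 1005 to 1461, and the receptor complex list to 7614 and 6277 CPM beside 5044 to 5593. Across the 12323 genes with a GC content, the correlation (Spearman) of a library's deviation with GC was -0.354 and -0.264 in these libraries and -0.116 to 0.365 in the other 10. The Trbj2 segments had a mean GC content of 54.5% (49.0 to 58.3), the Trbj1 segments 47.4% (41.7 to 56.6) and the Trbv members 46.5% (40.9 to 53.7). Summed myeloid and dendritic markers, of which 9 of 11 had at least 10 reads, stood at 801 and 1539 CPM in these libraries and ran from 97.5 to 1521 in the others. Double-positive thymocyte markers, of which 6 of 8 had 10 reads, stood at 463 and 753 CPM beside 202 to 426. B cell markers (3 of 5) stood at 32.4 and 44.0, inside the 17.1 to 67.0 of the others. Gamma delta T cell markers (2 of 5, with Sox13 at 0) stood at 31.1 and 50.2, inside 18.2 to 53.6.

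The summed level of the segments differed between libraries as well. Trbv rows summed to 831, 757 and 763 CPM in floxed males, 857, 790 and 680 in knockout males, 837, 865 and 839 in floxed females and 1160, 826 and 829 in knockout females. Female knockout library 1 was alone above 865. Trbj rows summed to 269, 276 and 268 CPM, then 213, 258 and 232, then 351, 326 and 321, then 326, 273 and 344. Knockout males lay below floxed males without overlap. For every 100 Trbv reads there were 32.4, 36.4 and 35.1 Trbj reads in floxed males, 24.9, 32.7 and 34.2 in knockout males, 42.0, 37.7 and 38.2 in floxed females and 28.1, 33.1 and 41.5 in knockout females, with overlap between genotypes in both sexes.

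Whether the change with the knockout differed between the female and male groups was tested directly, and edgeR called 0 members in CPM, where 0% of all genes were called. Females are labelled heterozygotes and males are not, so sex and zygosity cannot be told apart, here or in the floxed comparison below. At an unadjusted p under 0.05, 1 member, Trbv12-2, passed, where 2.73% of all genes did. Floxed females were set against floxed males to see how the members vary without the knockout. Again 0 members were called, where 0.0322% of all genes were, and 3 of the 34 tested passed at an unadjusted p under 0.05, where 6.14% of all genes did. The fitted changes of all 14 Trbj members were at or above 0, with a median log2 fold change of 0.26, and 16 of 20 Trbv members lay above 0, with a median of 0.15, where all genes had 0.00.

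Beside the segments stand the genes that build and carry the receptor. Of the receptor complex list, which holds the constant genes and the CD3 chains among others, 10 of 11 were tested and 0 passed in either sex or over both, with median log2 fold changes of 0.07 in males, 0.21 in females and 0.17 over both sexes. Trac, the alpha chain constant gene, stood at 1693, 1676 and 1592 CPM in floxed males, 1835, 1610 and 1802 in knockout males, 1741, 1780 and 1725 in floxed females and 2539, 1817 and 2159 in knockout females. Its change in females was 0.31 (SE 0.12, edgeR adjusted p = 0.210). Cd3d, a signalling chain of the complex, stood at 831, 814 and 816, then 933, 811 and 886, then 776, 853 and 837, then 1218, 818 and 903 CPM, and changed by 0.25 (SE 0.14, edgeR adjusted p = 0.315) in females. Of the recombination list, whose products cut and rejoin the segments, 9 of 14 were tested and 2 rose over both sexes, where 3.31% of all genes were called, with 0 calls in males or in females, where 0.0242 and 0.201% were. Hmgb2, a DNA-bending protein that assists RAG, rose by 0.81 (SE 0.13, edgeR adjusted p = 0.00930), and Xrcc5, which codes for the Ku80 subunit of DNA end joining, by 0.40 (SE 0.09, edgeR adjusted p = 0.0385). Without female knockout libraries 1 and 3 these changes were 0.73 (adjusted p = 0.13) and 0.32 (adjusted p = 0.222). With 1 library left out, Hmgb2 kept its call in 12 of 12 fits and Xrcc5 lost it in 10 of 12, with adjusted p up to 0.148, and Xrcc5 also lost it with the replicate block (adjusted p = 0.0731) and with no low-count filter (adjusted p = 0.0839). Both proteins also act in other processes of dividing cells.

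The alpha locus was read the same way for comparison. Of 80 Trav members 64 were tested and of 60 Traj members 54, and 0 of them passed the edgeR test in males, in females or over both sexes. Their median log2 fold changes were -0.06, 0.00 and -0.05 for Trav and -0.03, 0.03 and -0.01 for Traj.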

How the data were processed

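The authors deposited unnormalized counts of reads for each gene symbol in 12 libraries. Per the submitters' processing notes the tools were HTSeq 0.6.1p1, STAR in versions 2.3.0e and 2.5.2b, and CASAVA, with mm9 as the build, and the annotation, strand setting and read length were not given in the sources used here. Per the labels' protocols, total RNA was made into libraries with SMARTer Stranded kits. The 5 HTSeq summary rows were left out: reads outside features were 44.3 to 46.9% of a library, those without a unique position 14.1 to 17.3% and ambiguous ones 0.584 to 0.678%. The members and lists, and the alternative without female knockout libraries 1 and 3, were chosen with earlier results of these data known.

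edgeR 4.0.16 in R 4.3.3 was fitted to all 12 libraries (filterByExpr, 12411 genes kept, TMM, robust quasi-likelihood, 1 mean per group, Benjamini-Hochberg threshold 0.05). CPM use library sizes after TMM. For usage the library size was replaced by the summed Trbv or Trbj counts. Shares were compared by exact two-sided permutation. Named members were the 8 Trbv and 6 Trbj with the highest mean share, the 3 of each kind with the largest usage change over both sexes among those with a mean count of at least 50, Trbv31, those nearest the read limit and any called. Sequences came from GENCODE M21 transcripts by symbol. Alternatives were DESeq2 1.42.0, limma 3.58.1 voom with quality weights, other scaling and filters, a replicate block, single sexes, shares per length and libraries left out. The fits were tested on simulated data.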

Additional observations from a re-analysis of the deposited data

Results flagged for a closer look

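Usage of Trbv12-2 was singled out because all knockout males lay below all floxed males and all knockout females above all floxed females. The mean difference was -0.640 percentage points in males and 1.51 in females (n = 3 a group). The edgeR test of the female minus the male change gave a log2 difference of 0.31 (SE 0.17, adjusted p = 0.956) on the usage scale and 0.47 (SE 0.21, adjusted p = 0.892) in CPM. Sex and zygosity cannot be told apart in it.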

How the results depend on the processing

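Over 24 settings, the 31 log2 fold changes followed gave 632 alternative values. Of these, 596 kept their direction and side of the threshold, 21 newly passed it, 15 changed sign and 0 lost a call, since none was called to begin with. Calls of members in CPM in females went from 0 to 2 with DESeq2 (Trbj2-3, Trbj2-6) and to 6 with limma-voom. Here voom was always run with a quality weight for each library. Over both sexes they went to 3 with DESeq2 (Trbj2-3, Trbj2-5, Trbj2-6) and to 5 with voom. With 1 library left out they ranged from 0 to 2 in both comparisons, and the 2 came without female knockout library 2 (Trbj2-3 in each, with Trbv12-2 in females and Trbj2-6 over both sexes). On the usage scale voom called 2 members in females and 2 over both sexes, DESeq2 called 1 (Trbv12-1) over both sexes, and leaving out 1 library gave 0 to 1 in each, the 1 being Trbj2-3 without female knockout library 2. Without female knockout libraries 1 and 3, which leaves 1 library assumed to vary like the other groups, 0 were called. The cause was not tested.

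The usage changes that reversed sign were all small: over both sexes, Trbj1-3 was 0.00 with both edgeR and DESeq2, on opposite sides of 0, and ranged from -0.03 to 0.03 with 1 library left out, and Trbv16 ranged from -0.04 to 0.02. Without female knockout libraries 1 and 3, Trbj1-6 was -0.04, Trbj2-7 0.04 and Trbv16 0.00. With the replicate block, Trbj1-6 was -0.01 and Trbj1-3 0.00. The deviations of same-numbered libraries from their group means correlated at 0.44 and -0.61 in males and at 0.19, 0.28 and -0.22 in females. So few values of mixed sign cannot decide whether the numbers pair samples. The block called 0 members in any comparison. Dividing by length moved 6 of 21 shares by more than their SD.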
